A study of Mus musculus with 36 samples.

Results

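The mouse orthologues of 9 human Alzheimer risk genes, Adam10, Picalm, Bin1, Cd2ap, Sorl1, Cd33, Ms4a6d, Ptk2b and Abi3, were followed across sorted microglia. They were taken by symbol from the 26348 genes of the count tables, and all 9 were found and passed the filter on low counts that left 14892 genes for testing. Microglia are the resident macrophages of the brain. They came from male mice aged 6 months that were either APP/PS1 transgenics, called APP here, or wild-type (WT) controls. The APP mice carry the APPswe transgene and a further transgene, under the prion promoter, and deposit amyloid. Cells were sorted by CD11b, CD45 and CD11c, the integrin encoded by Itgax. This gave 6 groups: CD11c- WT cells, CD11c- APP cells and CD11c+ APP cells, each from cortex and from hippocampus.

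The 9 genes sit at different steps of how a macrophage handles its surface and what it takes up. Adam10 is a membrane protease, an alpha-secretase that cuts the amyloid precursor protein and sheds other surface proteins, Trem2 among them. Picalm, Bin1, Cd2ap and Sorl1 act in endocytosis and endosomal sorting. Picalm is a clathrin adaptor, Bin1 bends membranes, Cd2ap links membrane proteins to actin, and Sorl1 is a sorting receptor that works with retromer. Cd33 is a sialic acid-binding lectin, an inhibitory receptor in human myeloid cells, and Ms4a6d is a membrane protein of the Ms4a family. Ptk2b is a kinase of the focal adhesion kinase family, and Abi3 is a relative of the Abi subunits of the WAVE complex, which drives actin branching.

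Counts of all cells of 1 animal, region and gate were summed into 23 replicates, 4 in each group except 3 in CD11c+ APP hippocampus, named 1-2, 2-3 and 4. The sums held 1037425 to 4484427 counts from 2657 cells in 36 libraries. Levels are TMM-scaled CPM, the share of a library's counts that fall on a gene, not divided by gene length, and are given as mean ± SD. Each change is a log2 fold with its SE from edgeR's quasi-likelihood test, called at a Benjamini-Hochberg adjusted p under 0.05 over all 14892 genes. Of the 12 microglial markers, 12 had counts in every group. Their summed level was lowest in CD11c+ APP cortex, at a median of 9006 CPM, and highest in CD11c- APP hippocampus, at 22150 CPM. Neuronal markers had medians of 982 to 1268 CPM in the 3 cortical groups and 26.1 to 88.7 CPM in the 3 hippocampal groups. Genotype was read from the sample titles, and the labels' genotype tag contradicts the title in 17 of the 36 libraries and gives both genotypes to 6 animals. Libraries of different groups came from different library sets in the titles, except the cortical CD11c- and CD11c+ cells of each APP animal, which shared a set, so in every other comparison set and group cannot be told apart. Replicates carry different animal numbers, but 1-2 and 2-3 may be pools that share animal 2.

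Adam10 (ENSMUSG00000054693, chromosome 9, 70678997 to 70780229 on GRCm38, plus strand) had 155853 counts in all and was present in every replicate. Picalm (ENSMUSG00000039361, chromosome 7, 90130213 to 90213465, plus strand) had 80820. Their upstream sequences are shown because their levels moved together over the replicates, with a Pearson r of 0.80 for log2 CPM over 23 replicates, a description since animals recur across groups. The 250 bases before each RefSeq start (GRCm38.p6) are chr9:70678732-70678981 for Adam10 and chr7:90129963-90130212 for Picalm, both on the plus strand. Capitals mark the CCAAT box (CCAAT), the GC box (GGGCGG), the ETS core (GAGGAA) and the E-box (CACGTG) on either strand, and neighbouring matches may overlap.

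Adam10: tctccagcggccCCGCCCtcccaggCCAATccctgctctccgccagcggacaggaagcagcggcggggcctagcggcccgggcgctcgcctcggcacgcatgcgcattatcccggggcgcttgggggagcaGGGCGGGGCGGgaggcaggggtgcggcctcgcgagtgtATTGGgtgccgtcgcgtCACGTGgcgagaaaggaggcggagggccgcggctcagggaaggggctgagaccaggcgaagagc
Picalm: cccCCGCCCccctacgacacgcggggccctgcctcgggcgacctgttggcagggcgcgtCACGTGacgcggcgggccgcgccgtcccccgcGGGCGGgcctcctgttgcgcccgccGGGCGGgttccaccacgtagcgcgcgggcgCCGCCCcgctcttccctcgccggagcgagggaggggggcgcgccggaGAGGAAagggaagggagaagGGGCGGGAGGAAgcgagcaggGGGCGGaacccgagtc

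The Adam10 window held the CCAAT box 2 times, the GC box 3 times and the E-box 1 time, and the Picalm window held the GC box 6 times, the ETS core 2 times and the E-box 1 time. Of 32536 such windows, 33.8% held the CCAAT box, 33.0% the GC box, 23.4% the ETS core and 6.04% the E-box. Both windows were rich in G and C, at 74% for Adam10 and 79.2% for Picalm against a median of 52.4% over all windows. RefSeq windows were matched for 5 of the 9 genes, the other 3 being Sorl1, Cd33 and Cd2ap. The Sorl1 window (chr9:42124298-42124547, minus strand) also held the E-box.

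Adam10 was highest in 2 groups and lower in the other 4. The 4 replicates of WT hippocampus had 3275, 3473, 3373 and 2760.2 CPM (3221 ± 317), and those of CD11c- APP cortex 3211, 2944, 2909.6 and 3364 CPM (3107 ± 218). WT cortex had 2829, 2417, 2219 and 2127 CPM (2398 ± 312). WT cortex lay below CD11c- APP cortex in every replicate, the only pair of neighbours in the order of the 6 means whose replicates did not overlap. The 3 replicates of CD11c+ APP hippocampus had 2181, 2803 and 1747 CPM (2244 ± 531), with replicate 2-3 highest. CD11c+ APP cortex had 2182, 2164, 1619 and 1814 CPM (1945 ± 276). CD11c- APP hippocampus had 1554, 1636, 2005 and 2016 CPM (1802.5 ± 242), all below every replicate of WT hippocampus. The highest group mean was 1.79 times the lowest.

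Picalm split the 6 groups into 3 high and 3 low. CD11c- APP cortex had 1672, 1732, 1514 and 1931 CPM (1712 ± 173), and WT cortex 1809, 1341, 1369 and 1504 CPM (1506 ± 214). WT hippocampus had 1645, 1771, 1669.5 and 1178 CPM (1566 ± 264), with replicate 4 lowest. These 3 groups overlapped each other and lay above all replicates of the other 3. CD11c+ APP cortex had 871, 1097, 849 and 1110.0 CPM (982 ± 141). CD11c- APP hippocampus had 1094, 959, 874 and 939 CPM (966 ± 92.6), and CD11c+ APP hippocampus 824, 1067 and 804 CPM (899 ± 146). The low groups overlapped each other too, and the highest group mean was 1.91 times the lowest. Picalm overlaps 4 unvalidated transcript models on its own strand, so reads shared with them make its counts uncertain.

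**Figure D1:**
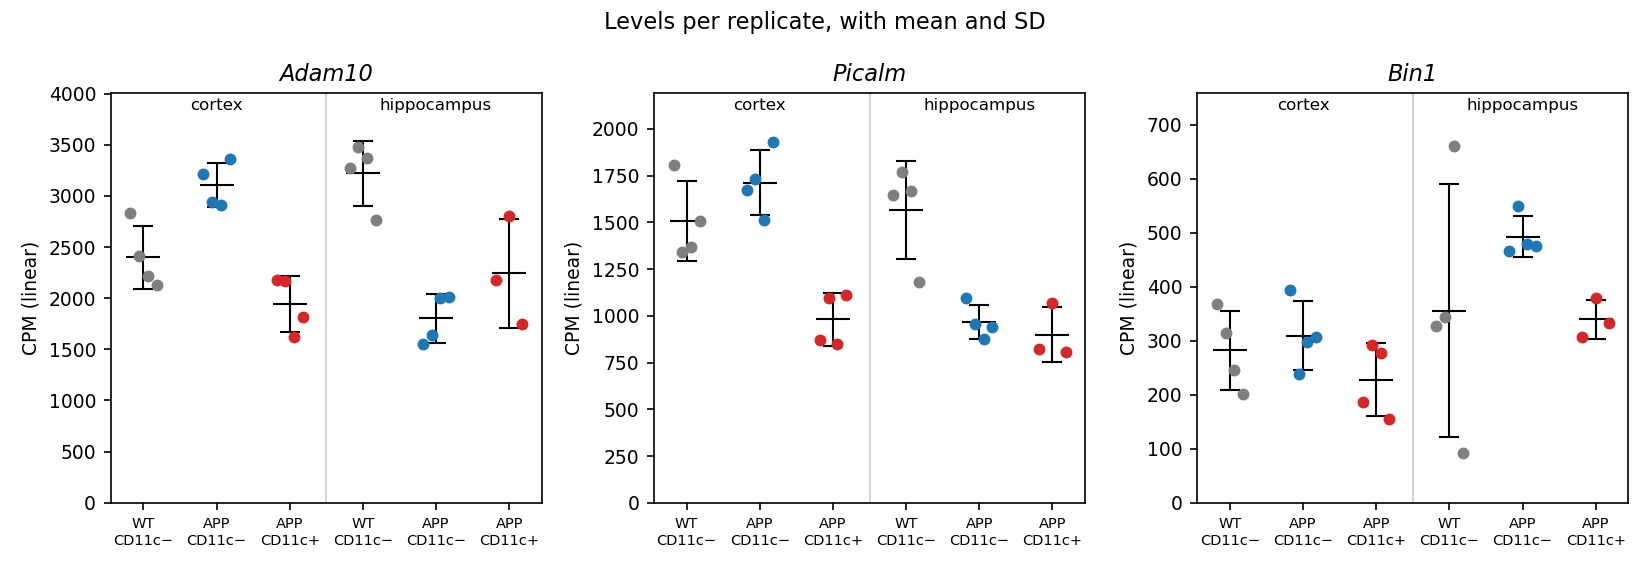
Levels of Adam10, Picalm and Bin1 in CPM (linear axis) in the 6 groups, each point a replicate, with the group mean and SD as black bars. CD11c- APP hippocampus (1802.5 CPM Adam10, 966 CPM Picalm) lies below WT hippocampus (3221 and 1566 CPM) for both genes, and CD11c+ APP cortex below CD11c- APP cortex.

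The first question was how the genes differ between CD11c+ microglia of APP mice, the subset known from around plaques, and CD11c- cells of the same tissue. In cortex Picalm fell by 0.80 ± 0.15 on the log2 scale (n = 4 and 4, edgeR adjusted p = 0.00529) and Adam10 fell by 0.68 ± 0.14 (adjusted p = 0.00959). The other 7 genes did not pass. These were 2 of 9 genes called against 1.23% of all genes tested, and the median fold change of the 9 was −0.52 against 0.19 over all genes. Adam10 and Picalm ranked 34 and 102 of all genes by mean CPM. The fitted biological coefficient of variation had a median of 0.31 in the 345 genes at 500 CPM or more. It was 1.71 in the 11412 genes under 50 CPM. Shares over all genes, here and below, are therefore not matched to the 2 genes in level or spread. Both fell in 4 of 4 animals when the gates of 1 animal, which shared a library set, were set side by side. The log2 ratios within animals ran from −0.89 to −0.44 for Adam10 and from −0.94 to −0.66 for Picalm. CD11c+ cells also showed more genes, with medians of 662 to 926 per cell after thinning to 5000 counts against 422 to 596 in CD11c- cells. Mitochondrial counts were 2.08 to 3.24% of the total in CD11c+ and 0.903 to 1.74% in CD11c- cells, and their part was not tested. After a covariate for the number of genes per cell was added, Adam10 was at −0.31 (adjusted p = 0.87) and Picalm at −0.63 (adjusted p = 0.491). Genes per cell did not overlap between the gates, so the covariate and the gate can hardly be told apart. Without replicate 3 of CD11c+ cortex Adam10 was at −0.60 (adjusted p = 0.0522).

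Markers of other cells were present in both cortical gates, and their sums were not tested. The 9 astrocyte markers all had counts in both gates, with a summed level of 429 to 1326 CPM in CD11c- and 870 to 2229 CPM in CD11c+ cells. Of the 10 oligodendrocyte markers 8 had counts in CD11c- cells, with Mog and Ermn at 0, and 10 in CD11c+ cells, at 132 to 288 and 402 to 593 CPM. All 12 neuronal markers had counts in both, at 558 to 1042 and 801 to 1572 CPM. Only the oligodendrocyte ranges of these 3 lists did not overlap. Lymphocyte markers stood the other way, at 43.4 to 110.0 CPM in CD11c- cells, from 1 of 9 genes, Cd79b. In CD11c+ cells they stood at 1.94 to 33.8 CPM, from 3 of 9. Cd3d, Cd3e, Cd3g, Nkg7, Cd79a and Gzma were at 0 in both, and only 4 of the 9 are listed in the count tables at all. Leaving out the 49 cells of the series with at least 1% of counts from such markers, Adam10 was at −0.79 (edgeR adjusted p = 0.00651) and Picalm at −0.96 (adjusted p = 0.00136).

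**Figure D2:**
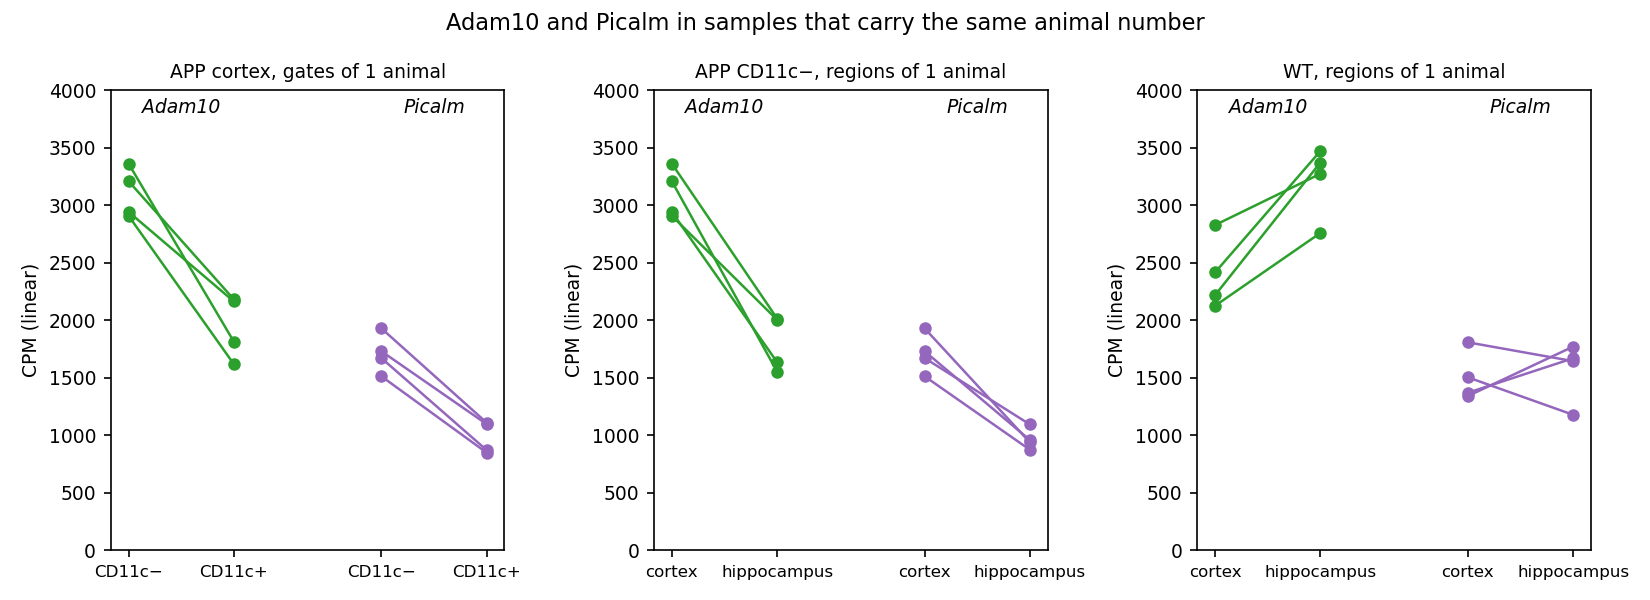
Adam10 and Picalm in CPM (linear axis), with a line for each animal number: CD11c- against CD11c+ APP cortex on the left, cortex against hippocampus for CD11c- APP cells in the middle and for WT cells on the right. In the left and middle panels all 4 lines of both genes fall, and in the right panel Adam10 rises in 4 of 4 animals and Picalm in 2 of 4.

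In hippocampus no gene of the 9 was called between the gates by edgeR, DESeq2 or limma, where edgeR called 0.551% of all genes. Cd33 was at −1.72 ± 0.72 (n = 3 and 4, edgeR adjusted p = 0.378) and Adam10 at 0.32 ± 0.15 (adjusted p = 0.443), the 2 genes with an unadjusted p under 0.05. Picalm stood at 899 ± 146 CPM in CD11c+ and 966 ± 92.6 CPM in CD11c- cells. Border-associated macrophage markers summed to 54.4 to 96.9 CPM in CD11c+ cells, from 4 of 8 genes, and 0 to 12.1 CPM in CD11c- cells, from 2 of 8. Monocyte markers overlapped, at 29.0 to 112 and 0 to 36.4 CPM. Astrocyte, endothelial and lymphocyte markers had lower medians in CD11c+ cells. The part of these sums was not tested. The difference between the regions in the gate effect was 0.99 ± 0.20 for Adam10 (edgeR adjusted p = 0.315) and 0.70 ± 0.22 for Picalm (adjusted p = 0.485). With the animal as a block, where the hippocampal CD11c+ level rests on replicate 4 alone, Adam10 was at 0.66 and Picalm at 0.53 (both with an adjusted p of 1). edgeR called 0% of all genes for this interaction, 0 genes in all, with 1116 at an unadjusted p under 0.05. Of the 9 genes 2 lay at an unadjusted p under 0.05, and DESeq2 and limma each called Adam10. DESeq2 called 248 and limma 5 genes of all.

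The next question was whether CD11c- microglia of APP mice differ from WT cells. In cortex edgeR called 0% of all genes and 0 of the 9, with 1354 genes of all and Adam10 alone of the 9 at an unadjusted p under 0.05. DESeq2 called 245 and limma 4 genes of all, and neither called any of the 9. Adam10 was at 0.37 ± 0.14 (n = 4 and 4, edgeR adjusted p = 0.519), and its replicates did not overlap between the groups.

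In hippocampus Adam10 fell by 0.84 ± 0.14 (n = 4 and 4, edgeR adjusted p = 0.000802) and Picalm fell by 0.70 ± 0.15 (adjusted p = 0.0145) in CD11c- APP cells. Replicates of the groups did not overlap for either gene. These 2 of 9 compare with 1.52% of all genes called, and the median of the 9 was 0.37 against 0.01 over all genes. Cd33 was at 1.5 ± 0.64 (adjusted p = 0.254), from 72.8 ± 38.4 CPM in WT to 206 ± 21.5 CPM in APP cells, without overlap. Grouped by the genotype tag of the labels in place of the title, Adam10 was at −0.30 and Picalm at −0.09, both with an adjusted p of 1. Adam10 passed in 10 of 11 alternatives, all but the tag, and Picalm in 4 of 11, with adjusted p from 0.00515 to 1. Among the 11 was a block by replicate number, which here pairs animals of different genotype that share only a number. With it Adam10 was at −0.77 (edgeR adjusted p = 0.0495) and Picalm at −0.61 (adjusted p = 0.276). Genes per thinned cell also differed, at 551 to 632 in APP and 377 to 450.5 in WT hippocampus. These ranges did not overlap, so a covariate for them can hardly be told apart from genotype. After this covariate Adam10 was at −0.63 (adjusted p = 0.0378) and Picalm at −0.60 (adjusted p = 0.164). Mitochondrial counts were 1.096 to 1.1997% in APP and 0.591 to 0.722% in WT hippocampus, and their part was not tested. Of the 12 neuronal markers 5 had counts in CD11c- APP and 9 in WT hippocampus, at sums of 1.77 to 107 and 0 to 137 CPM.

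The effect of genotype differed between the regions for both genes. The hippocampal minus the cortical effect was −1.21 ± 0.20 for Adam10 (edgeR adjusted p = 0.00122) and −0.88 ± 0.22 for Picalm (adjusted p = 0.0453). These were 2 of 9 genes called against 1.01% of all genes. With the animal number as a block, which pairs the regions of an animal, Adam10 was at −1.26 (adjusted p = 0.00302) and Picalm at −0.91 (adjusted p = 0.153). Adam10 passed in all 16 fits that left out 1 replicate, and Picalm in 4 of 16, with adjusted p from 0.00582 to 0.108. The 12 replicates without which Picalm missed the threshold were CD11c- APP cortex 1, 2 and 4, CD11c- APP hippocampus 2, 3 and 4, WT cortex 2, 3 and 4 and WT hippocampus 1, 2 and 3. Picalm passed in 3 of 10 other settings and Adam10 in all 10. The genotype tag of the labels was not among these settings, since it was fitted only within each region. Grouped by the tag, the genotype effect on Adam10 was −0.0573 in cortex and −0.30 in hippocampus. Adam10 was at −0.94 (adjusted p = 0.0363) after the covariate for genes per cell.

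CD11c+ APP cells were then compared with WT cells, using the same APP groups as the gate comparison. In cortex Picalm fell by 0.62 ± 0.15 (n = 4 and 4, edgeR adjusted p = 0.0470), the only 1 of 9 called against 1.07% of all genes. Adam10 was at −0.30 ± 0.14 (adjusted p = 0.395). The Picalm call was lost in 7 of 8 fits without 1 replicate, with adjusted p from 0.0495 to 0.201, and was kept only without CD11c+ replicate 4. It was also kept in 6 of 10 other settings, and after the covariate for genes per cell it was at −0.47 (adjusted p = 0.576). A block by replicate number, which here pairs animals that share only a number, is among the 10. In hippocampus Picalm fell by 0.80 ± 0.17 (n = 3 and 4, adjusted p = 0.00862), again the only 1 of 9 called against 2.07% of all genes. Adam10 was at −0.52 ± 0.15 (adjusted p = 0.0752). Without CD11c+ replicate 1-2 or 4 Picalm was at −0.81 (adjusted p = 0.0568) or −0.76 (adjusted p = 0.0707). Without CD11c+ replicate 2-3 or WT replicate 4 Adam10 was at −0.78 (adjusted p = 0.0138) or −0.65 (adjusted p = 0.0430). After the covariate for genes per cell Adam10 was at 0.03 (adjusted p = 1) and Picalm at −0.55 (adjusted p = 0.92) in hippocampus. Genes per cell did not overlap between CD11c+ APP and WT cells in either region, so here too covariate and group can hardly be told apart.

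The last question was how the regions differ. In WT cells none of the 9 passed, where 1.63% of all genes did, and Adam10 was at 0.43 ± 0.14 for hippocampus over cortex (n = 4 and 4, edgeR adjusted p = 0.106). It was higher in hippocampus in 4 of 4 animals. No gene of the 9 was called there by DESeq2 or limma either, and 1 lay at an unadjusted p under 0.05. In CD11c- APP cells the order of Adam10 was the reverse. Picalm had stood at 1566 ± 264 CPM in WT hippocampus and 1506 ± 214 CPM in WT cortex. Picalm fell by 0.82 ± 0.15 (n = 4 and 4, edgeR adjusted p = 0.00332) and Adam10 fell by 0.79 ± 0.14 (adjusted p = 0.00232) in hippocampus, each in 4 of 4 animals. These 2 of 9 compare with 2.29% of all genes called. With the animal as a block the folds were −0.83 for Picalm (adjusted p = 0.0924) and −0.80 for Adam10 (adjusted p = 0.0885), and 0 of all genes passed in that fit. All 12 neuronal markers had counts in the cortical group, at a sum of 558 to 1042 CPM, and 5 of 12 in the hippocampal group, at 1.77 to 107 CPM, with Snap25, Rbfox3, Tubb3, Syn1, Gad1, Slc17a7 and Nefl at 0. Without the cells rich in markers of other types Picalm was at −1.05 and Adam10 at −1.002 (both with an adjusted p of 0.000584). In CD11c+ APP cells 0 of the 9 were called or lay at an unadjusted p under 0.05, and 0.222% of all genes were called. DESeq2 and limma called 0 of the 9 there as well.

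TMM scaling and RLE scaling placed the median of all genes differently by over 0.1 on the log2 scale in 5 of these comparisons, which bears on each fold above. For CD11c- APP against WT hippocampus the median was 0.01 with TMM and 0.14 with RLE. Relative to it Adam10 was at −0.85 under both and Picalm at −0.71 under both. For the interaction of genotype and region the median was 0.18 with TMM and 0.38 with RLE, and relative to it Adam10 was at −1.39 and −1.40 and Picalm at −1.06 and −1.07. For CD11c+ APP against WT cortex the median was 0.15 and 0.02, and relative to it Picalm was at −0.77 and −0.76.

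**Figure D3:**
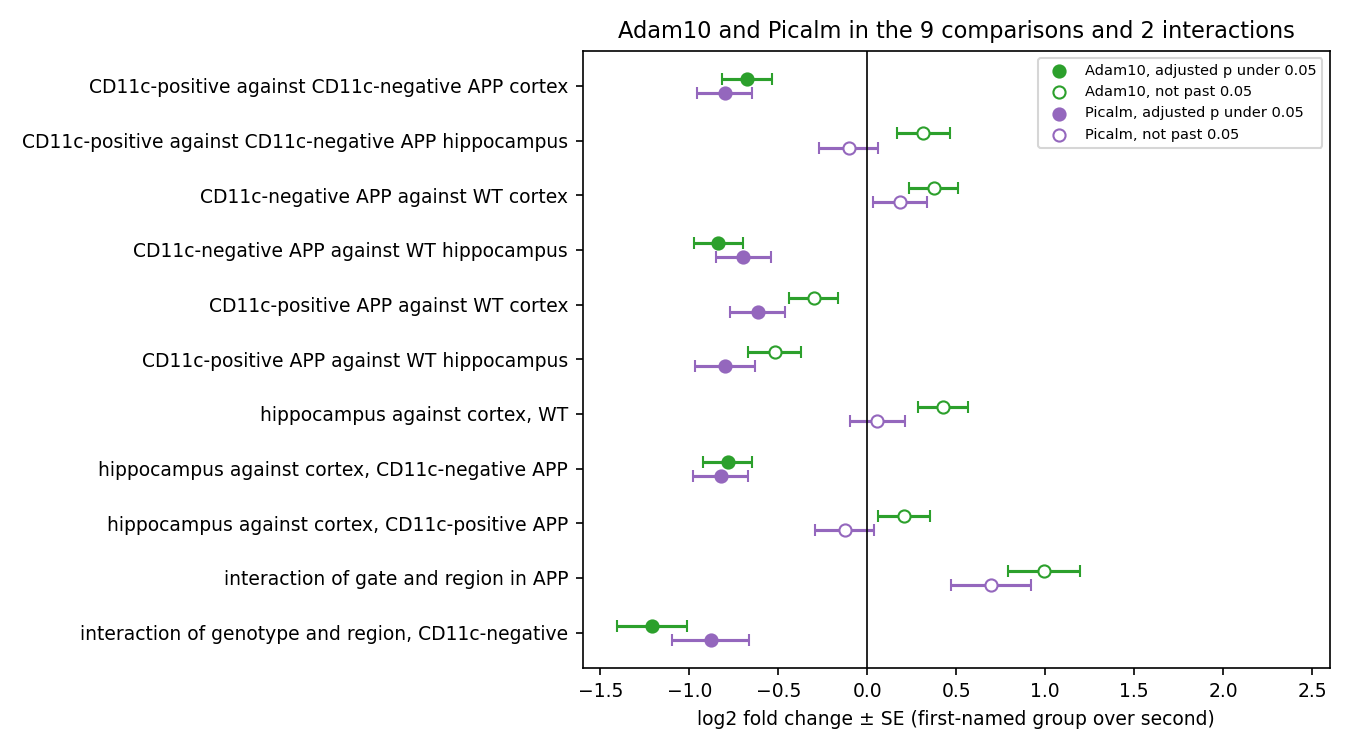
Log2 fold changes of Adam10 (green) and Picalm (purple) with SE bars in the 9 comparisons of groups and the 2 interactions, filled where the edgeR adjusted p is under 0.05. Every filled point lies below 0, from −0.62 for Picalm in CD11c+ APP against WT cortex to −1.21 for Adam10 in the interaction of genotype and region.

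Most cells of every group had a count of Adam10, so its levels rest on many cells. After thinning each cell to 5000 counts, which left out 73 cells with fewer, a count of it was seen in 87.3 ± 2.81% of CD11c+ and 82.6 ± 4.71% of CD11c- APP cortical cells. Without thinning the shares were 92.9% and 91.1%. Among cells with a count the median Adam10 level was 1968 ± 249 CPM in CD11c+ and 3304 ± 491 CPM in CD11c- cells. In hippocampus the share was 74.6 ± 7.68% in CD11c- APP and 77.9 ± 4.32% in WT cells, 85.6% and 87.8% without thinning. The level among cells with a count was 1865 ± 359 CPM and 3227 ± 264 CPM in these groups. CD11c+ APP hippocampus had the highest share, 91.4 ± 3.90%, above every replicate of the other 2 hippocampal groups.

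Picalm had a similar layout in the cortical gates. Its share was 72.8 ± 5.59% in CD11c+ and 74.9 ± 6.15% in CD11c- cells, 82.9% and 86.6% without thinning. Among cells with a count its median level was 758 ± 168 CPM and 1299 ± 466 CPM. In WT cells its share was 82.7 ± 3.32% in cortex and 67.3 ± 8.76% in hippocampus, without overlap between replicates. Without thinning these shares ran from 86.3 to 93.7% and from 66.7 to 89.2% and overlapped. Genes per thinned cell were 494.5 to 588 in WT cortex and 377 to 450.5 in WT hippocampus. The 81 pairs of gene and comparison were tested by a two-sided exact permutation test on replicate shares. Of these 0 passed after adjustment over the 81, the smallest adjusted p being 0.272. Replicate shares did not overlap in 12 of the 81, a count for which no share over all genes was computed to set it against. The smallest exact p that 4 against 4 replicates allow is 0.0286, and 0.0571 for 4 against 3. Pairs of 4 against 3 could thus not pass at all. The others could pass only if most of the 81 reached their smallest p, so the lack of a pass says little. The files hold no cell type that should lack these genes, so a background share from free RNA was not measured.

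**Figure D4:**
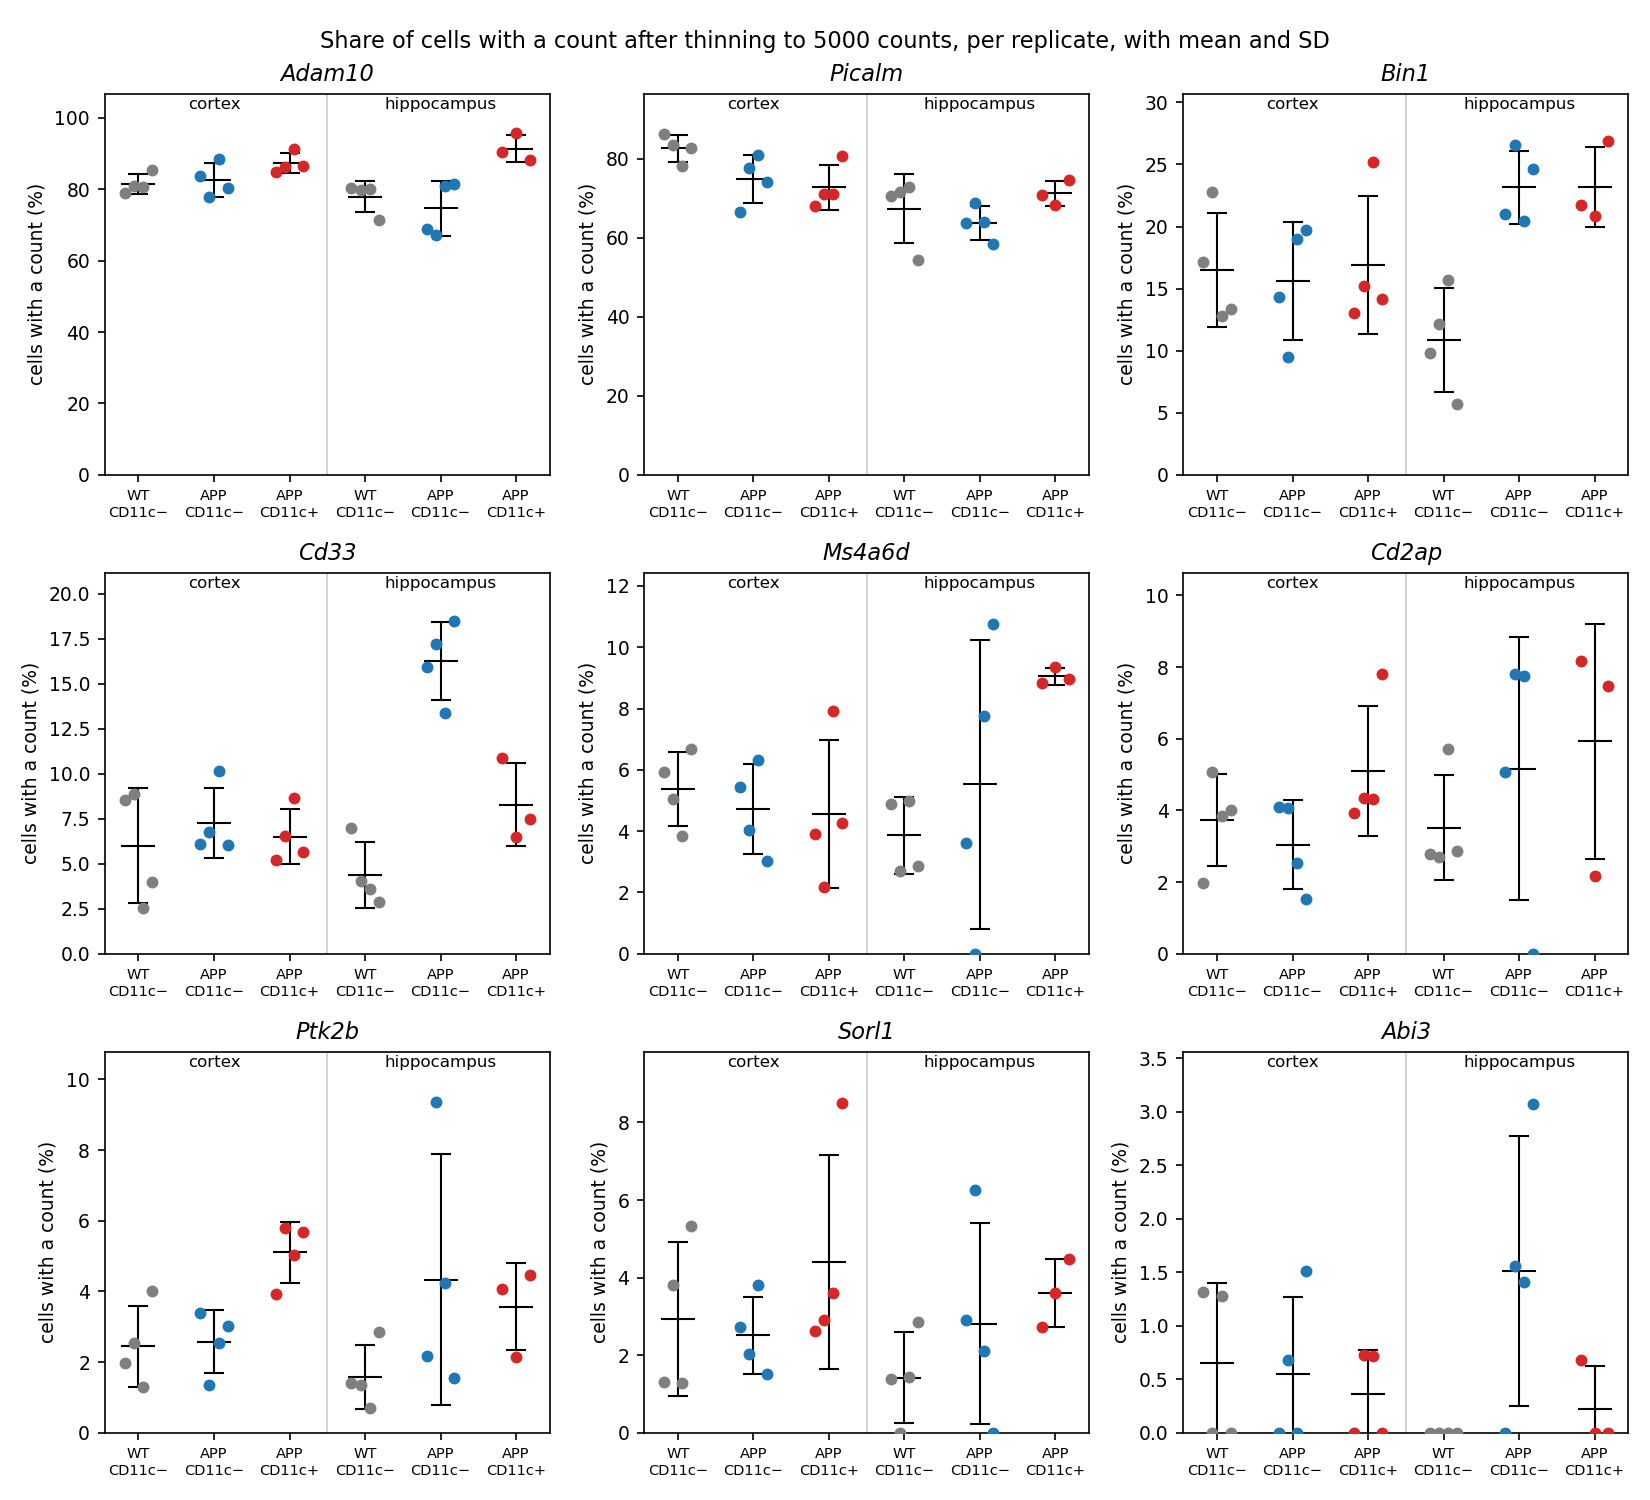
Share of cells with a count of each gene after thinning to 5000 counts, in percent (linear axes that differ between panels), each point a replicate, with the group mean and SD. Adam10 and Picalm were found in most cells of every replicate, Bin1 in 5.71 to 26.9% and the other 6 genes in at most 18.5%.

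Bin1 (ENSMUSG00000024381, chromosome 18, 32377230 to 32435737) was called in none of the 11 tests. The noncoding gene A830052D11Rik overlaps it on the other strand, so reads of the pair cannot be told apart. Its level was highest in CD11c- APP hippocampus, with 466, 549, 479.7 and 476 CPM (493 ± 37.8). CD11c+ APP hippocampus had 306, 379 and 333 CPM (339 ± 36.4), without overlap with the CD11c- cells. WT hippocampus had 328, 343, 660.3 and 91.7 CPM (356 ± 233), so that 1 replicate lay above and 3 below all replicates of CD11c- APP hippocampus. The cortical groups stood at 309 ± 64.3 CPM in CD11c- APP, 282 ± 73.3 CPM in WT and 228 ± 67.4 CPM in CD11c+ APP cells, all overlapping. A count of Bin1 was present in 23.2 ± 2.93% of CD11c- APP and 10.8 ± 4.20% of WT hippocampal cells. Replicate ranges of the share did not overlap, 20.4 to 26.6% against 5.71 to 15.7% (exact permutation p = 0.0286, adjusted p = 0.272). CD11c+ APP hippocampus had a share of 23.2 ± 3.24%. Genes per thinned cell moved with these shares, with replicate medians of 377 to 450.5 in WT, 551 to 632 in CD11c- and 696 to 1015 in CD11c+ APP hippocampus, and their part in the shares was not tested.

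The remaining endocytic genes were sparse. Cd2ap (chromosome 17, 42792951 to 42876665, minus strand) had 5345 counts in all, and a count was present in 182 of the 2657 cells. Its group means ran from 45.7 ± 31.3 CPM in CD11c- APP cortex to 134 ± 97.6 CPM in WT hippocampus, and all neighbours in that order overlapped. In a typical replicate 42.2% of its counts came from a single cell. Sorl1 (chromosome 9, 41964720 to 42124297, minus strand) had 3270 counts in 151 cells. Its means ran from 18.7 ± 24.1 CPM in WT hippocampus to 68.8 ± 51.9 CPM in CD11c+ APP cortex, with all neighbours overlapping. Libraries of the same animal, region and gate differed by a median of 2.24 on the log2 scale for Sorl1 and 1.25 for Cd2ap, against 0.18 for Adam10 and 0.16 for Picalm. An antisense gene overlaps Sorl1, and since strand use in counting is not given, reads of the pair cannot be told apart.

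Cd33 (ENSMUSG00000004609, chromosome 7, 43524216 to 43544428, minus strand) stood out in CD11c- APP hippocampus, where the 4 replicates had 195, 187, 236 and 208 CPM (206 ± 21.5). WT hippocampus had 117, 51.4, 31.7 and 91.2 CPM, CD11c+ APP hippocampus 115, 47.3 and 24.3 CPM, and CD11c- APP cortex 54.9, 152, 111 and 68.3 CPM. All of these lie below the lowest replicate of CD11c- APP hippocampus, whereas WT cortex, at 218, 52.3, 26.0 and 74.9 CPM, reached into its range with replicate 1. No comparison passed for Cd33, and the fitted biological coefficient of variation of the gene was 0.638. The share of cells with a count was also highest there, at 16.2 ± 2.17% against 8.27 ± 2.31% in CD11c+ APP hippocampus and 4.37 ± 1.82% in WT hippocampus. After thinning, replicate shares of the first did not overlap with either of the others (exact permutation p = 0.0571 and 0.0286, both with an adjusted p of 0.272). Without thinning they ran from 19.3 to 25.7% and overlapped with the 8.97 to 21.1% of CD11c+ cells, but not with the 3.47 to 6.90% of WT cells. The summed microglial markers were also highest in this group, at 20510.2 to 23610 CPM against 15806 to 18027 CPM in WT hippocampus, and their part in the Cd33 level was not tested.

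Ms4a6d (ENSMUSG00000024679, chromosome 19, 11586604 to 11604849, minus strand) was spread widely, from 49.9 ± 8.03 CPM in CD11c+ APP cortex to 161 ± 101 CPM in WT hippocampus. All neighbours in the order overlapped and no comparison passed. A count was seen in 9.05 ± 0.27% of CD11c+ APP and 3.86 ± 1.25% of WT hippocampal cells, without overlap (exact permutation p = 0.0571, adjusted p = 0.272). Genes per thinned cell were 696 to 1015 and 377 to 450.5 in these groups, and their part in the shares was not tested. The gene has close paralogues in its cluster, so reads could be split between them and its values are uncertain. Of 17 other listed Ms4a genes 4 passed the count filter, and edgeR called 0 of them in any comparison, with up to 3 at an unadjusted p under 0.05. DESeq2 called 0 and limma up to 1.

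Ptk2b (chromosome 14, 66153257 to 66281052, minus strand) had 3131 counts in 109 cells, with means from 32.2 ± 18.7 CPM in CD11c- APP cortex to 74.3 ± 47.5 CPM in WT cortex. No comparison of its level passed, and all neighbours overlapped. The share of cells with a count was 5.11 ± 0.86% in CD11c+ and 2.58 ± 0.89% in CD11c- APP cortex, with ranges of 3.92 to 5.80% and 1.35 to 3.4% (exact permutation p = 0.0286, adjusted p = 0.272). Without thinning the ranges overlapped, at 5.19 to 6.29% and 1.33 to 5.41%. Abi3 (chromosome 11, 95830074 to 95842476, minus strand) had 109 counts in all, in 46 of 2657 cells, and 4 of the 23 replicates were at 0. Its highest replicate, WT cortex 1, reached 8.95 CPM. Zfp652, Phospho1 and Gngt2 overlap Abi3 on the other strand, so even these counts are uncertain, and no difference of Abi3 was detectable at this depth.

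**Figure D5:**
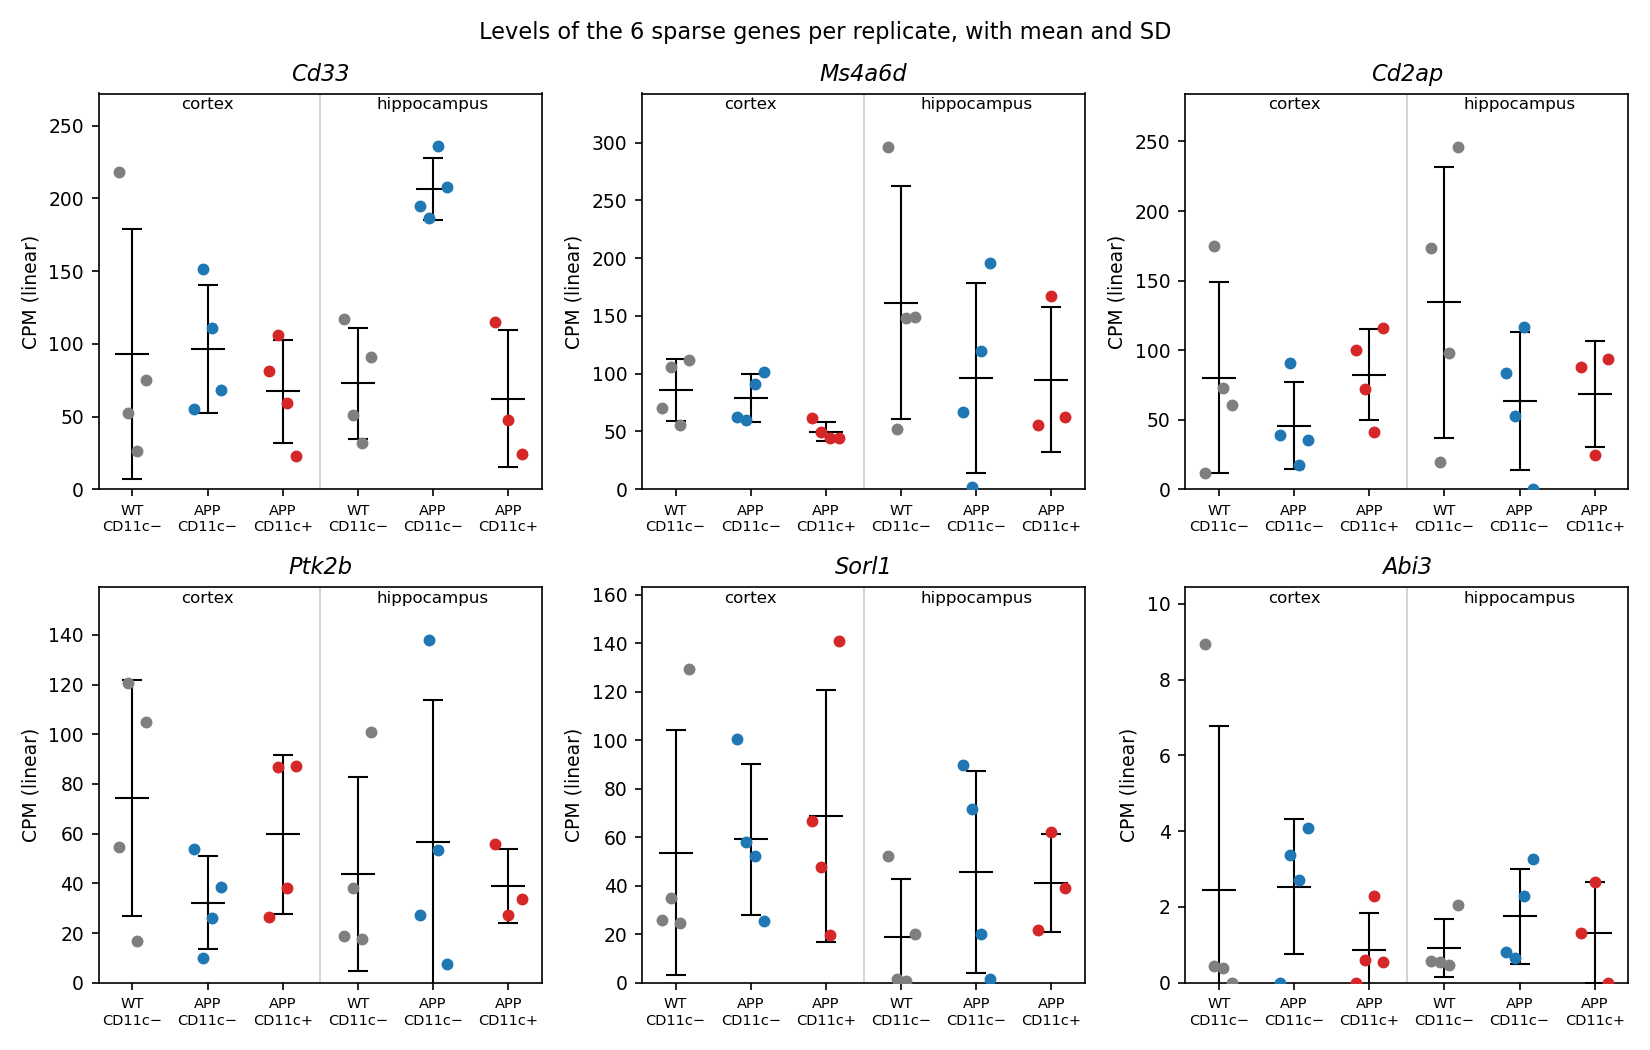
Levels of Cd33, Ms4a6d, Cd2ap, Ptk2b, Sorl1 and Abi3 in CPM (linear axes that differ between panels) in the 6 groups, each point a replicate, with the group mean and SD. The 4 points of Cd33 in CD11c- APP hippocampus lie between 187 and 236 CPM, above every other group except 1 replicate of WT cortex at 218 CPM.

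Among themselves the 9 genes showed little common movement apart from Adam10 and Picalm. The next highest Pearson r of log2 CPM over the 23 replicates was 0.51, between Abi3 and Cd33, and the lowest −0.44, between Abi3 and Cd2ap. A thinned cell held counts of a median of 2 of the 9 genes in every group. The mean number was lowest in WT hippocampus, 1.71 ± 0.17, and highest in CD11c+ APP hippocampus, 2.16 ± 0.07. The genes whose log2 CPM was most like that of Adam10, among 3212 genes of at least 50 CPM, were B4galt1 (r = 0.92), Skil (r = 0.92) and Zscan26 (r = 0.91). For Picalm they were Abcc5 (r = 0.92), Marcks (r = 0.92) and Arglu1 (r = 0.88), all over 23 replicates. For Cd33 they were Twf2 (r = 0.74), Sirpa (r = 0.69) and Arrb2 (r = 0.67). The replicates share groups and library sets, so these values describe likeness only.

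Few genes of the related lists were called, and no list was tested as a whole. Between the cortical gates, where 1.23% of all genes were called, 3 of 28 tested orthologues of other Alzheimer risk genes rose and 0 fell, with a median of 0.24 against 0.19 over all genes. They were Apoe, the lipid carrier, from 408 ± 227 to 4666 ± 463 CPM (3.52 ± 0.54, edgeR adjusted p = 0.000399), Ctsb, a lysosomal protease (1.17 ± 0.17, adjusted p = 0.000253) and Trem2, a receptor for lipids (0.74 ± 0.17, adjusted p = 0.0286). Of 18 tested genes of amyloid precursor processing 0 were called there, their median was 0.38, and 1 had an unadjusted p under 0.05. Of 16 tested genes of focal adhesion kinase signalling 0 rose and 1 fell, the Src family kinase Lyn, from 506 ± 39.6 to 176 ± 19.5 CPM (−1.52 ± 0.29, adjusted p = 0.00444), with a list median of −0.18. Of 12 tested Siglecs and their signalling partners 1 rose, the adaptor Tyrobp (1.01 ± 0.16, adjusted p = 0.000485), with a median of −0.16. None of 24 clathrin, 20 retromer and 21 WAVE genes passed there, with medians of 0.39, 0.42 and 0.19 and 1, 1 and 2 genes at an unadjusted p under 0.05. As a check of the gate, Itgax stood at 159 ± 50.5 CPM in CD11c+ and 1.24 ± 1.94 CPM in CD11c- APP cortex, and Tmem119, a marker of resident microglia, at 417 ± 19.6 and 1663 ± 216 CPM.

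In CD11c- APP against WT hippocampus, where Adam10 and Picalm fell and 1.52% of all genes were called, 1 of 24 clathrin genes fell and 0 rose. This was Ap2a2, a subunit of the clathrin adaptor AP2, from 631 ± 209 to 283 ± 93.8 CPM (−1.16 ± 0.26, edgeR adjusted p = 0.0179), with a list median of 0.34 against 0.01 over all genes. Of 21 WAVE and actin genes 1 fell and 0 rose, Actr2, a subunit of the actin-branching Arp2/3 complex, from 2962 ± 543 to 1375 ± 179 CPM (−1.11 ± 0.17, adjusted p = 0.000405), with a median of 0.10. Of 20 retromer and sorting genes 1 rose and 0 fell, the retromer core subunit Vps35, from 12.7 ± 11 to 105 ± 19.9 CPM (3.03 ± 0.70, adjusted p = 0.0220), with a median of −0.02. Of 18 amyloid precursor processing genes 1 rose and 0 fell, Itm2b, a membrane protein that binds the amyloid precursor protein (0.54 ± 0.13, adjusted p = 0.0397), with a median of −0.15. None of the 28 other risk orthologues passed, with 5 at an unadjusted p under 0.05 and a median of 0.03. Actr2 also differed between regions in the effect of genotype (−1.27 ± 0.24, adjusted p = 0.00533), as did Vps35 (3.84 ± 0.95, adjusted p = 0.0491). With the animal as a block Vps35 was at 4.58 (adjusted p = 0.298).

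Between hippocampus and cortex of CD11c- APP mice, Ap2a2 (−1.24 ± 0.26, edgeR adjusted p = 0.00915) and Actr2 (−1.05 ± 0.17, adjusted p = 0.0015) were called lower in hippocampus, where 2.29% of all genes were called. No gene passed in this comparison with the animal as a block, where Ap2a2 was at −1.31 (adjusted p = 0.101) and Actr2 at −1.06 (adjusted p = 0.0671). The lists held 0 higher and 1 lower of 24 clathrin genes and 0 higher and 4 lower of 21 WAVE genes, with medians of −0.17 and 0.02 against −0.10 over all genes. The other WAVE genes called lower were Cyfip2, Wasf1 and Nckap1, all subunits of the complex or close relatives. They had 0 counts in the hippocampal group and 55.9 ± 55.4, 11.2 ± 5.94 and 30.4 ± 31.7 CPM in cortex. Nckap1 was not tested in the fit with the animal as a block. Neuronal markers also had counts in cortex, and their part in these levels was not tested. In WT cells, where 1.63% of all genes were called, 3 of 21 WAVE genes were lower in hippocampus and 0 higher. These were Cyfip2 (−8.72 ± 1.47, edgeR adjusted p = 0.00723), Wasf1 (−9.02 ± 1.87, adjusted p = 0.0239) and Abi2 (−6.42 ± 1.51, adjusted p = 0.0285). With the animal as a block Abi2 was at −6.99 (edgeR adjusted p = 0.461), and Cyfip2 and Wasf1 were not tested in that fit. Of the 28 other risk orthologues 1 was higher in hippocampus in CD11c- APP cells, Grn, a lysosomal protein (0.996 ± 0.24, edgeR adjusted p = 0.0231). In the same cells 1 fell, and the list median was 0.08. The gene that fell was Clu, with 0 counts in CD11c- APP hippocampus and 89.0 ± 47.6 CPM in cortex. Clu is also made by astrocytes. Of the 9 astrocyte markers 5 had counts in that hippocampal group, with Gfap, Aqp4, Aldh1l1 and Slc4a4 at 0. They summed to 175 to 384 CPM there and 429 to 1326 CPM in CD11c- APP cortex, and their part in the Clu level was not tested. In WT cells Clu was also called lower in hippocampus (−7.43 ± 1.44, edgeR adjusted p = 0.0118). With the animal as a block it was at −8.40 there (adjusted p = 0.415).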

How the data were processed

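Single cells were sorted and made into Smart-seq2-based libraries, per the labels' protocols. Per the submitters' processing notes, UMI-tools 0.5.3, HISAT2 2.1.0 and featureCounts 1.6.0 were used with GRCm38 (mm10). The authors deposited unnormalized whole-number counts for each gene in each barcode. Whether reads of 1 molecule were merged, and whether strand was used, no source used here gives. Of 2660 barcodes 2657 passed a minimum of 200 genes and a limit of 20% mitochondrial counts, and no doublet caller was run. The 83 barcode sequences recur between libraries (82 in more than 1), so a cell is a barcode within a library. No 2 libraries were identical (0 pairs).

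Counts were summed per animal, region and gate and tested with edgeR 4.0.16 (R 4.3.3): TMM, filterByExpr, 1 fit with a mean for each of 6 groups, 17 residual degrees of freedom, quasi-likelihood test, tested first on simulated data. DESeq2 1.42.0, limma 3.58.1 on log2(mean CPM + 1), RLE scaling and further settings were alternatives. Shares were tested with scipy 1.17.1. Gene positions came from GENCODE vM21 and upstream sequences from RefSeq. The fold of a gene is given where its unadjusted p was under 0.05, and from other lists up to 3 called genes a list. The 9 genes, the lists and the rules were chosen with earlier results of these data known.

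Equal animal numbers in the titles pair the cortical gates and the regions, since they name the same animal. Deviations of same-numbered replicates correlated at 0.045 to 0.072 between the cortical gates over 3480 genes, and at −0.032 to 0.026 and −0.061 to 0.050 between the regions in WT and in CD11c- APP animals. Animals of different genotype share only a number.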

Additional observations from a re-analysis of the deposited data

Results flagged for a closer look

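Within groups of 4 replicates, 4 of the 45 sets of gene and group tested held a replicate far from the others, where chance flags about 1 in 20. Abi3 stood at 8.95 CPM in WT cortex replicate 1 against 0 to 0.436 CPM in the other 3, and at 2.05 CPM in WT hippocampus replicate 4 against 0.459 to 0.563 CPM. Bin1 stood at 549 CPM in CD11c- APP hippocampus replicate 2 against 466 to 479.7 CPM. Sorl1 stood at 129 CPM in WT cortex replicate 4 against 24.8 to 34.9 CPM.

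The effect of APP genotype differed between hippocampus and cortex in edgeR's interaction test for Adam10 (−1.21, adjusted p = 0.00122) and Picalm (−0.88, adjusted p = 0.0453). Picalm passed in only 3 of 10 other settings and 4 of 16 fits that left out 1 replicate, and Adam10 in all of them. Cortical and hippocampal libraries came from different library sets, which cannot be told apart from region.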

How the results depend on the processing

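Of the 9 genes, the number called changed in these settings. Between the cortical gates it was 0 with the genes-per-cell covariate, whose values did not overlap between the gates, against 2. For CD11c- APP against WT hippocampus it was 1 with RLE size factors, the covariate, the groups compared alone, limma on means over cells, no gene filter or the replicate block, and 0 with the genotype tag, against 2. For CD11c+ APP against WT cortex it was 0 with the covariate, groups alone, no filter or the replicate block and 2 with limma, against 1. For CD11c+ APP against WT hippocampus it was 2 with DESeq2 or RLE and 0 with the covariate or groups alone, against 1. For region in CD11c- APP cells it was 0 with the replicate block, against 2. For gate by region it was 1 with DESeq2 or limma, against 0. For genotype by region it was 1 with RLE, the covariate, groups alone, limma, no filter, the replicate block or replicates 1-2 and 2-3 summed, against 2. Leaving out 1 replicate gave 1 to 2 between the cortical gates, 0 to 1 and 0 to 2 for CD11c+ APP against WT cortex and hippocampus, and 1 to 2 for genotype by region. Adam10 changed sign to −0.0573 between APP and WT cortex with the genotype tag, and to 0.0263 between CD11c+ APP and WT hippocampus with the covariate. The cause of these changes was not tested. For APP against WT the replicate block pairs animals that share only a number, so there it is no paired test.

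The number of all genes called ranged over the settings from 23 to 606 between the cortical gates (183 in the reported fit), 33 to 529 between the hippocampal gates (82), 0 to 245 for genotype in cortex (0), 0 to 1066 for genotype in hippocampus (226), 45 to 517 and 2 to 1215 for CD11c+ APP against WT cortex (160) and hippocampus (309), 0 to 1601 for region in WT (243), 0 to 1160 in CD11c- APP (341) and 1 to 652 in CD11c+ APP cells (33), 0 to 248 for gate by region (0) and 40 to 790 for genotype by region (150). With the replicate block it was 271 between the cortical gates, 0 and 69 for genotype in cortex and hippocampus, 70 for CD11c+ APP against WT cortex, 0 for region in WT, 0 in CD11c- APP cells, 0 for gate by region and 90 for genotype by region. No paired analysis was possible for the other 3 comparisons because their groups share fewer than 2 animal numbers. Animals of different genotype share only a number, and their deviations correlated at −0.061 to 0.060. With RLE in place of TMM the share of called genes that were higher moved from 80.5% to 52.6% between the hippocampal gates and from 57.5% to 42.1% for CD11c+ APP against WT cortex. No share of cells passed in any setting, 0 of 81 pairs each, but with so few replicates the exact test could hardly pass after adjustment. Few cells carry the sparse genes, which limits what their levels can show.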
